A study of Mus musculus with 12 samples.

Results

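The genes described here encode the enzymes by which the liver turns the nitrogen of amino acids into urea, together with 4 enzymes that release that nitrogen in the periportal hepatocytes. The 9 genes were taken from a named list and matched by Ensembl ID to the gene counts of mouse liver, where all 9 were found among 24187 genes and all 9 passed the filter on low counts, which left 22581 genes. 5 of them belong to the urea cycle (Nags, Cps1, Otc, Ass1 and Asl) and 4 to amino acid catabolism (Gls2, Sds, Hal and Tat). The study asked whether human macrophages given as a cell therapy alter the liver after an overdose of acetaminophen (APAP, paracetamol), and the question put to these genes is how far each was altered in injured livers and whether the cells made a difference.

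Bulk RNA sequencing was done on the livers of 12 mice. The 3 control mice were untreated. The other 9 received APAP and then either the PBS vehicle (APAP vehicle, 5 mice) or hAAMs (APAP hAAM, 4 mice). hAAMs are human alternatively activated macrophages, grown from CD14+ blood monocytes with CSF1 and then IL-4 and IL-13, and they were thawed from frozen stocks. The labels give an APAP dose of 350 mg/kg. The methods of the study name both 350 and 500 mg/kg and do not say which the sequenced mice received. The sequencing is presented together with the severe model, in which the higher dose was used, so the dose is uncertain. By those methods the mice were 10 to 12 weeks old, with the strain given as C57BL/6 J in one passage and C57BL6/JOlaHsd in another, and were fasted for 12 h before APAP. Cells or vehicle followed at 16 h, and culling is given as 36 h in the methods and as 32 h for a model with 500 mg/kg. The methods describe mice that received saline after the same fast, whereas the labels call the sequenced controls untreated. Whether these controls were fasted is therefore uncertain, and injury and the handling that came with it cannot be told apart. All 12 livers carried the male transcript Ddx3y at 54.4 to 75.1 normalised counts (CPM), with Xist at 0.185 to 2.59 CPM. CPM are scaled to the library total multiplied by the scaling factor (TMM) of that library. The TMM factors were 0.832 to 0.859 in controls, 1.02 to 1.13 with vehicle and 0.933 to 1.14 with hAAM.

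Ammonia and bicarbonate enter the urea cycle in mitochondria through carbamoyl phosphate synthetase (Cps1), which is inactive without N-acetylglutamate, the product of Nags. Ornithine transcarbamylase (Otc) makes citrulline, and argininosuccinate synthetase (Ass1) and argininosuccinate lyase (Asl) carry the cycle on in the cytosol. In the liver lobule these enzymes are most abundant around the portal tract, whereas a narrow layer of hepatocytes around the central vein takes up what ammonia is left and stores it as glutamine through glutamine synthetase (Glul). Toxic APAP metabolites are formed mainly by cytochromes of the pericentral cells, which is where the necrosis begins. Ammonia that escapes both systems is a hallmark of liver failure.

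Libraries held 47391650 to 74056505 counts, and the smallest total belonged to an hAAM liver. The 9 genes together took 0.590% to 0.824% of the counts in controls, 0.417% to 1.12% with vehicle and 0.646% to 1.32% with hAAM. Of 8 listed hepatocyte markers 7 were found in the counts, including Alb, Ttr and Apob. Their sum was 84510 to 113502 CPM in controls, 83151 to 115852 CPM with vehicle and 88117 to 120127 CPM with hAAM, with overlapping ranges in the 3 groups. Alb made up 55.2% to 60.4% of it in the injured livers. In each injured group 1 of the 7 was called higher and 1 lower, and 3 lay below every control and 1 above. Among all genes 34.8% with vehicle and 28.5% with hAAM did not overlap with controls. Markers of some other cells were called against control, where 29.8% of all genes were called with vehicle and 20.7% with hAAM. None of 5 neutrophil, 6 B and T lymphocyte or 4 cholangiocyte markers was called in either injured group. The sum of 5 stellate cell and fibroblast markers was 162 to 207 CPM in controls, 273 to 548 CPM with vehicle and 263 to 640 CPM with hAAM, with 3 of the 5 called higher in each. Of 7 macrophage and monocyte markers 3 were called higher in each group (267 to 334 CPM in controls, 325 to 553 CPM and 331 to 547 CPM), of 5 endothelial markers 2 with vehicle and 1 with hAAM, and of 4 red cell markers 3 higher and 1 lower with vehicle and 1 lower with hAAM. The part of these cells in the results was not tested. APAP vehicle replicate 3 and APAP hAAM replicate 4 carry different treatments, yet over the 15804 genes with a mean of at least 50 counts their counts were 1.19 times as far apart as counting noise alone would put them, where the remaining 35 pairings among injured mice gave 2.61 to 6.93. In the 9 genes these livers differed by 1.47% (Nags) to 4.16% (Otc). Whether a single liver was sequenced under both labels was not tested, and in that case a group would hold a mouse fewer and the treatments would share a liver. The fits were therefore also run without both, and the number of the 9 genes called stayed at 3 for vehicle against control, 2 for hAAM against control and 0 for hAAM against vehicle.

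Gene levels can be compared between genes only per length of exon. On that scale (normalised counts divided by exon length, FPKM, from the union of annotated exons) Cps1 was highest in control livers at 799 ± 129 (SD, n = 3), followed by Ass1 at 735 ± 113 and Tat at 532 ± 127. The control ranges of Cps1 and Ass1 overlapped, and so did those of Ass1 and Tat. Gls2 (65.3 ± 7.98), Hal (59.4 ± 8.60), Otc (56.5 ± 8.09) and Asl (52.4 ± 4.64) came next, apart from Tat, in a step in which each range overlapped with the next. Sds at 33.1 ± 10.5 FPKM and Nags at 22.1 ± 2.56 FPKM were lowest, with overlapping ranges. Among the 5 urea cycle genes described here, the transcript of the activator-producing enzyme was thus the scarcest. That of the enzyme it activates had the highest mean.

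APAP injury was compared first, vehicle against control. Of the 9 genes, 3 passed edgeR's quasi-likelihood test at an FDR (Benjamini-Hochberg adjusted p over all genes) of 0.05. Otc and Nags were lower and Sds was higher. The share called among all genes was 29.8%, with 14.8% lower and 15.0% higher, so 3 of 9 lies near the background and the count itself says nothing particular about these genes. The median log2 fold change was -0.40 over the 5 urea cycle genes and -0.049 over the 4 catabolism genes, beside 0.012 over all genes. With hAAM against control 2 of the 9 were called, Nags lower and Sds higher, where 20.7% of all genes were called, 9.96% lower and 10.7% higher. The corresponding medians were -0.12 and 0.25 beside 0.016. The 2 comparisons share the control livers.

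**Figure D1:**
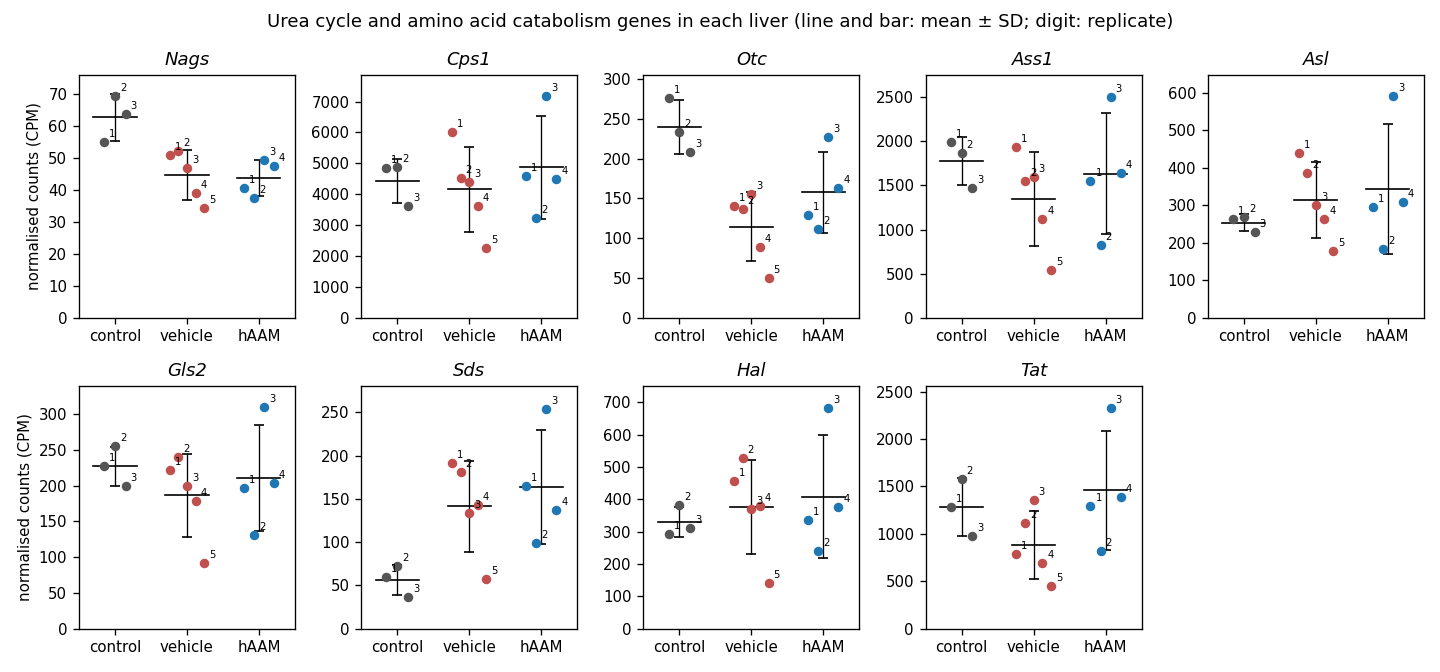
Normalised counts (CPM, vertical axis, from 0) of the 9 genes in each of the 12 livers. Points are livers with their replicate number, horizontal lines are means and bars are SD; the 5 vehicle livers lie below the 3 control livers for Nags and Otc, while Sds is higher in every hAAM liver than in any control.

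**Figure D2:**
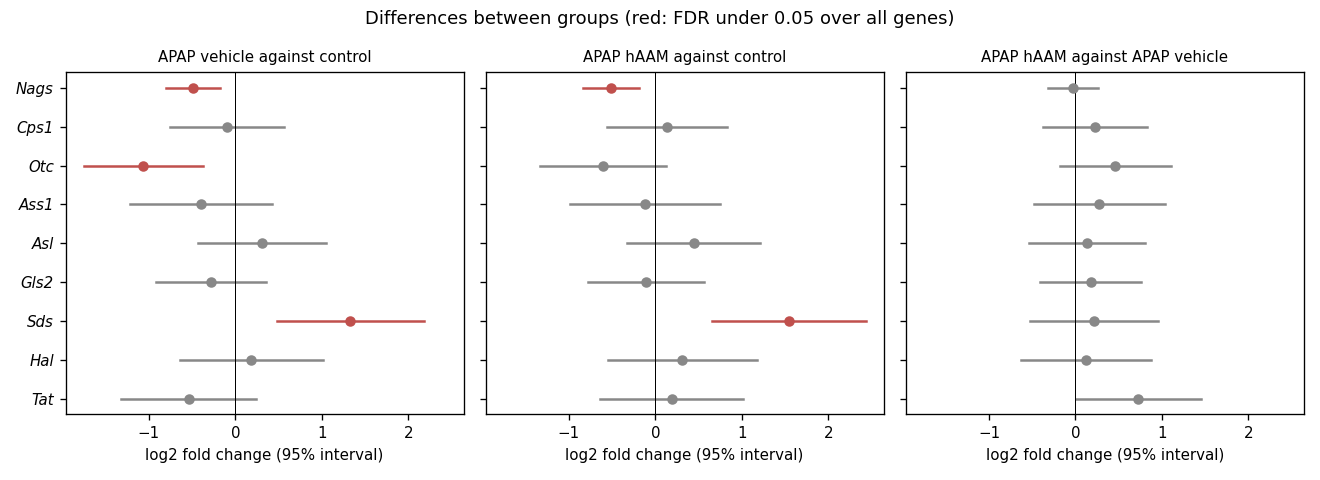
log2 fold changes of the 9 genes with 95% intervals from edgeR for the 3 comparisons. Red marks an FDR under 0.05, which Nags, Otc and Sds reached with vehicle, Nags and Sds with hAAM, and no gene between the treatments.

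Otc and Nags were the urea cycle genes that fell, and for both the sequence before the start of transcription was at hand. RefSeq promoter entries (build GRCm38.p6) matched 5 of the 9 genes, Ass1, Tat, Hal, Nags and Otc. The 250 bases before the annotated start of the members that fell are shown because their start coincides with that of the gene model used for the counts, at chrX:10252055-10252304 on the plus strand for Otc and chr11:102145263-102145512 on the plus strand for Nags.
Nags: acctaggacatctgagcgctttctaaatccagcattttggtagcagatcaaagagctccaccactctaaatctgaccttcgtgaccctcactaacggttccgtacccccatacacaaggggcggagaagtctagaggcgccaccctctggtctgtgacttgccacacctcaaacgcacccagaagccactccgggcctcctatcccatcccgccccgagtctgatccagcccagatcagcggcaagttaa
Otc: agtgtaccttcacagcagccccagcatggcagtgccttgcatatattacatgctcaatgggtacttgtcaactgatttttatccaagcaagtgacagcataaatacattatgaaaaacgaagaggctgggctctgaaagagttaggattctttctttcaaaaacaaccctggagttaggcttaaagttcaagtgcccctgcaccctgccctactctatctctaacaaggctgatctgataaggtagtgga

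Capitals would mark a match to motifs through which glucagon, glucocorticoid and liver factors are known to act, and there were none. The letters searched on both strands were TGACGTCA and its part TGACG (the cyclic AMP response element), TTGCGCAA and TTGCGTAA (C/EBP), CAAAGTCCA (HNF4) and the palindromic glucocorticoid receptor element. They were in none of the 5 promoters, while 17.8% of the 32851 promoter entries of this length held TGACG, 1.55% the full TGACGTCA, 0.164% TTGCGCAA, 0.152% TTGCGTAA, 0.384% CAAAGTCCA and 0.00913% the glucocorticoid element. The share of G and C was 43.6% before Otc and 55.6% before Nags, against 75.6% before Ass1. These letters are not in these windows, and nothing follows from that about the factors.

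Nags (ENSMUSG00000048217, chr11:102145513-102149477, GRCm38) makes the obligatory activator of the first step of the cycle. Its level was 54.9, 69.3 and 63.6 CPM in control replicates 1 to 3, and 50.8, 52.1, 46.7, 38.9 and 34.3 CPM in vehicle replicates 1 to 5. In hAAM replicates 1 to 4 it was 40.7, 37.6, 49.4 and 47.4 CPM. Every injured liver lay below every control. Non-overlap of this kind was seen for 34.8% of all genes with vehicle and 28.5% with hAAM. Nags fell by 0.49 on the log2 scale with vehicle (SE 0.14, to 71.2% of control, edgeR FDR = 0.0226) and by 0.52 with hAAM (SE 0.15, to 69.9%, edgeR FDR = 0.0308). It lost its call with vehicle without control replicate 2 (edgeR FDR = 0.0897), control replicate 3 (0.0674) or vehicle replicate 4 (0.0526). With hAAM it lost it without control replicate 2 (edgeR FDR = 0.104), control replicate 3 (0.0876), hAAM replicate 1 (0.0808) or hAAM replicate 2 (0.0835). The log2 fold change in those fits was -0.48 to -0.41 with vehicle and -0.50 to -0.44 with hAAM, close to that with all livers. Scaling by library size alone, which moves the median of all genes to 0.36 with vehicle and 0.32 with hAAM, left Nags at -0.15 (edgeR FDR = 0.349) and -0.23 (0.198). The exons of Nags overlap those of an antisense gene, Gm11586, whose mean was 0.292 CPM in controls and 0.380 CPM with vehicle. The strand setting of the counting is not given, but the partner's level is far under that of Nags.

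Cps1 (ENSMUSG00000025991, chr1:67123026-67231259) commits ammonia to the cycle. It stood at 4834, 4869 and 3614 CPM in controls, at 6021, 4509, 4402, 3608 and 2270 CPM with vehicle and at 4591, 3223, 7177 and 4487 CPM with hAAM. The control range lay within that of either injured group. The log2 fold change was -0.093 with vehicle (SE 0.30, 95% interval -0.75 to 0.57, edgeR FDR = 0.843) and 0.13 with hAAM (SE 0.32, interval -0.56 to 0.83, edgeR FDR = 0.799). As folds these intervals run from 0.594 to 1.48 and from 0.679 to 1.77, so the data do not show that Cps1 was unaltered.

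Otc (ENSMUSG00000031173, chrX:10252305-10321024), the step after Cps1, had the largest fall of the 9. Control livers held 276.7, 233.7 and 208.9 CPM, and vehicle livers held 140.6, 136.5, 156.0, 89.0 and 50.2 CPM. The hAAM livers held 128.9, 110.9, 227.2 and 162.5 CPM. All 5 vehicle livers were below all controls, whereas hAAM replicate 3 reached into the control range. Otc fell by 1.07 on the log2 scale with vehicle (SE 0.32, to 47.7% of control, edgeR FDR = 0.0246). With hAAM the log2 fold change was -0.61 (SE 0.34, interval -1.34 to 0.12, edgeR FDR = 0.218). That Otc was called in the vehicle group and not in the hAAM group does not make the groups different: the direct comparison gave 0.46 (SE 0.30, interval -0.18 to 1.10, edgeR FDR = 0.969). The call with vehicle was lost without control replicate 1 (edgeR FDR = 0.0849), control replicate 2 (0.0546) or vehicle replicate 4 (0.0561), with log2 fold changes of -1.09 to -0.95 in those fits, and was kept without vehicle replicate 5, the lowest liver (log2 fold change -0.88, edgeR FDR = 0.0229). With library size scaling the log2 fold change with vehicle was -0.73 (edgeR FDR = 0.0515).

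Because Cps1 and Otc are successive enzymes of the same organelle, their ratio was also taken liver by liver. Otc per Cps1 transcript, each per exon length, was 0.0629 to 0.0757 in controls, 0.0290 to 0.0464 with vehicle and 0.0368 to 0.0474 with hAAM. Neither injured group reached the control range. The ratio uses no scaling between libraries, so its lower values do not rest on the choice of scaling. The difference in ratio was not tested, and no share over other pairs of genes was taken. Otc itself was not called with hAAM.

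Ass1 and Asl carry the cytosolic steps that lead to arginine. Ass1 (ENSMUSG00000076441, chr2:31470207-31520672) was at 1990, 1864 and 1467 CPM in controls, at 1932, 1551, 1596, 1121 and 538.1 CPM with vehicle and at 1556, 829.0, 2501 and 1642 CPM with hAAM. Vehicle replicate 5 and hAAM replicate 2 were low and hAAM replicate 3 was high, and the groups overlapped. The log2 fold changes were -0.40 (edgeR FDR = 0.454, SE 0.38) and -0.12 (edgeR FDR = 0.858, SE 0.40). Gm5424, annotated as a processed pseudogene on chromosome 10, followed the urea cycle genes more closely than any other gene across the livers. Whether reads of a urea cycle gene were counted in it was not tested.

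Asl (ENSMUSG00000025533, chr5:130011258-130029247) was at 262.7, 269.3 and 227.6 CPM in controls, at 438.7, 385.2, 301.9, 263.4 and 178.6 CPM with vehicle and at 294.4, 182.4, 590.2 and 309.4 CPM with hAAM. The injured livers lay on both sides of the tight control range. The log2 fold change was 0.31 with vehicle (edgeR FDR = 0.524, SE 0.34) and 0.44 with hAAM (edgeR FDR = 0.404, SE 0.36), and 0.049 with hAAM without hAAM replicate 3.

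The 4 catabolic enzymes feed the cycle. Gls2 (ENSMUSG00000044005, chr10:128194457-128210004), the liver glutaminase that frees ammonia next to Cps1, was at 226.8, 254.7 and 199.3 CPM in controls, at 221.7, 240.7, 199.1, 178.2 and 91.2 CPM with vehicle and at 196.4, 131.2, 309.7 and 203.6 CPM with hAAM. Apart from vehicle replicate 5, hAAM replicate 2 and hAAM replicate 3 the livers stayed near the control range. The log2 fold changes were -0.29 (edgeR FDR = 0.492, SE 0.29) and -0.11 (edgeR FDR = 0.828, SE 0.31). Its exons overlap those of Spryd4 on the opposite strand, at 21.3 CPM in controls and 20.5 CPM with vehicle.

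Sds (ENSMUSG00000029597, chr5:120476526-120483932) turns serine into pyruvate and ammonia and is known to rise with glucagon, fasting and a protein-rich diet. It was the member that rose. Control livers held 59.6, 71.9 and 36.9 CPM, vehicle livers held 191.7, 180.6, 133.3, 143.5 and 57.0 CPM, and hAAM livers held 165.3, 99.0, 254.3 and 136.7 CPM. All 4 hAAM livers and 4 of 5 vehicle livers were above every control, and vehicle replicate 5 lay within the control range. Sds was 2.52-fold higher with vehicle (log2 fold change 1.33, SE 0.39, 95% interval 0.48 to 2.18, edgeR FDR = 0.0240) and 2.92-fold higher with hAAM (1.54, SE 0.41, interval 0.66 to 2.43, edgeR FDR = 0.0210). Without vehicle replicate 5 the log2 fold change with vehicle was 1.53 (edgeR FDR = 0.00629). The rise with vehicle lost its call without control replicate 1 (edgeR FDR = 0.0621), control replicate 3 (0.0988) or vehicle replicate 1 (0.0503), and the rise with hAAM without control replicate 1 (0.0560) or control replicate 3 (0.0849). The log2 fold change in those fits was 1.10 to 1.38 with vehicle and 1.32 to 1.59 with hAAM. Sds shares exon sequence with genes on the other strand, the antisense Gm15690 at 2.69 CPM in controls, 5.16 CPM with vehicle and 9.11 CPM with hAAM, and Plbd2 at 76.99, 92.2 and 93.1 CPM. Plbd2 was itself called higher, by 0.26 with vehicle (edgeR FDR = 0.0368, SE 0.085) and 0.27 with hAAM (edgeR FDR = 0.0463, SE 0.089), and Gm15690 with hAAM (1.76, edgeR FDR = 0.0414, SE 0.55). How the counting assigned reads on shared bases is not given, and the part of Plbd2 in the Sds counts was not tested.

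Hal (ENSMUSG00000020017, chr10:93488768-93519304), which deaminates histidine to urocanate, was at 294.2, 383.9 and 310.8 CPM in controls, at 457.8, 528.5, 369.3, 378.8 and 142.2 CPM with vehicle and at 335.3, 239.2, 682.6 and 377.3 CPM with hAAM. The span of the injured livers was several times that of the controls. The log2 fold changes were 0.19 (edgeR FDR = 0.742, SE 0.38) and 0.31 (edgeR FDR = 0.616, SE 0.40).

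Tat (ENSMUSG00000001670, chr8:109990437-109999803), the glucocorticoid-induced enzyme that opens tyrosine breakdown, was at 1279, 1582 and 973.3 CPM in controls and at 787.3, 1114, 1355, 693.1 and 447.9 CPM with vehicle. With hAAM it was at 1291, 819.7, 2324 and 1391 CPM. Of the vehicle livers 3 of 5, and of the hAAM livers 1 of 4, were below all controls. The log2 fold changes against control were -0.54 with vehicle (edgeR FDR = 0.278, SE 0.36) and 0.19 with hAAM (edgeR FDR = 0.763, SE 0.38).

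Between the treatments, hAAM against vehicle, none of the 9 genes passed edgeR's test, and neither did any other gene (0% of 22581; 1133 genes, 5.02%, had an unadjusted p under 0.05 while DESeq2 called 1 gene, and 88 without both close livers). Tat came closest among the 9, with a log2 fold change of 0.73 (SE 0.33, 95% interval 0.0041 to 1.45, unadjusted p = 0.0489, edgeR FDR = 0.966). The ranges of Tat overlapped widely, as they did for all 9 genes, while 1.40% of all genes had no overlap. Leaving out each liver in turn gave 0.41 (without hAAM replicate 3) to 0.94, and leaving out both close livers gave 0.96 (edgeR FDR = 0.693). The other intervals still held sizeable differences in both directions, for example -0.38 to 0.83 for Cps1, -0.48 to 1.03 for Ass1 and -0.53 to 0.96 for Sds. Nags had the narrowest, -0.31 to 0.26, around a log2 fold change of -0.026.

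Mice of the same group differed widely in these genes. APAP vehicle replicate 5 was the lowest of the 9 injured livers for all 9 genes, whereas it was lowest for 12.4% of all genes. APAP hAAM replicate 3 was the highest of the 9 for 8 of the 9 genes, all but Nags, against 20.4% of all genes. Without vehicle replicate 5, vehicle against control still had 3 calls, and without hAAM replicate 3, hAAM against control still had 2. Within the hAAM group replicate 3 was highest and replicate 2 lowest for all 9, against 29.7% and 24.7% of all genes. The genes vary together across livers, so these counts are not 9 separate observations. The coefficient of variation was larger than in controls for all 9 genes in either injured group, beside 49.1% of all genes with vehicle and 56.9% with hAAM. Its median over the 9 genes was 14.5% in controls, 37.6% with vehicle and 40.4% with hAAM.

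**Figure D3:**
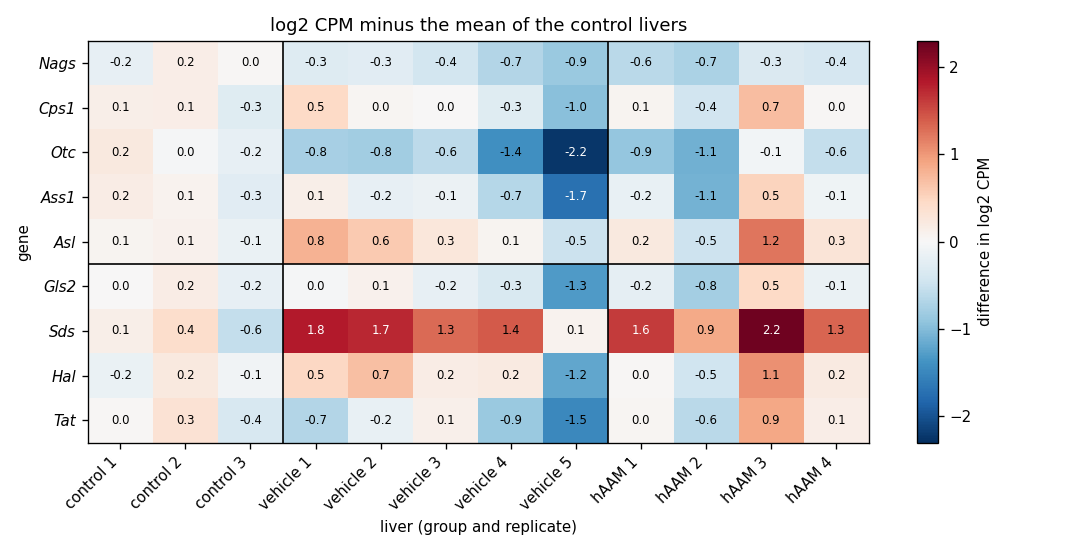
Difference in log2 CPM of each gene (rows, urea cycle above the line) in each liver (columns) from the mean of the 3 control livers. Vehicle replicate 5 is the lowest injured liver in all 9 rows and hAAM replicate 3 the highest in 8, while Sds is above 0 in all 9 injured livers.

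Other readouts of these livers stood as follows. Vehicle replicate 5 had the highest sum of 6 B and T lymphocyte markers, 58.9 CPM against 3.67 to 9.12 CPM in the other 11 livers, of which Ighm alone gave 54.7 CPM while the T cell genes Cd3e and Cd8a were within the range of the other livers. It also had the highest sum of 4 red cell markers, 1610 CPM against 124 to 598 CPM, which came from the 3 haemoglobin genes, since Alas2 was at 25.9 CPM and below every control. Its hepatocyte marker sum, 97190 CPM, was inside the control range, but Alb made up 57987 CPM of it, and 4 of the 7 markers lay below every control and 2 above. Its periportal marker sum over 10 other genes, 4637 CPM, was above all 3 controls and was led by Pck1 at 2456 CPM, while 6 of the 10 markers, Cyp2f2 among them at 51.6 CPM, lay below every control and 3 above. hAAM replicate 3 had the highest sum of 10 pericentral markers among the injured livers, 2875 CPM, beside 397 to 1515 CPM with vehicle and 3962 to 6321 CPM in controls. Cyp2e1 made up 2464 CPM of that sum, and 8 of the 10 markers were higher in it than in any other injured liver. Their part in the levels of the 9 genes was not tested. In bulk RNA, fewer cells of a type and less RNA per cell cannot be told apart.

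The periportal position of the 9 genes can be set beside the pericentral side of the same nitrogen traffic. Of 10 pericentral markers 9 were called lower with vehicle and 7 with hAAM, with medians of -3.11 and -2.38 on the log2 scale. Of 10 periportal markers that are not members, 1 was higher and 1 lower with vehicle and 2 were higher with hAAM, with medians of 0.28 and 0.42. Glul, the enzyme that captures ammonia as glutamine downstream of the urea cycle, was at 1113, 636 and 1168 CPM in controls, 40.8 to 63.9 CPM with vehicle and 39.9 to 75.4 CPM with hAAM. It fell by 4.27 with vehicle (edgeR FDR = 2.47e-06, SE 0.24) and fell by 4.17 with hAAM (edgeR FDR = 1.39e-05, SE 0.27). Ornithine aminotransferase (Oat), which competes with Otc for ornithine, fell by 3.52 (edgeR FDR = 0.000201, SE 0.40) and fell by 2.72 with hAAM (edgeR FDR = 0.00200, SE 0.43). In hAAM replicate 3 Oat was at 124.8 CPM, against 30.7 to 43.7 CPM in the other hAAM livers and 26.3 to 44.8 CPM with vehicle.

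Ratios between members and these enzymes were taken liver by liver. Cps1 per Glul transcript, per exon length, was 1.85 to 4.58 in controls, 21.2 to 66.9 with vehicle and 39.0 to 67.3 with hAAM. Otc per Oat was 0.240 to 0.428 in controls, 0.623 to 2.71 with vehicle and 1.01 to 2.72 with hAAM. Both ratios were above the control range in all 9 injured livers, although Otc itself had fallen in the vehicle group.

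**Figure D4:**
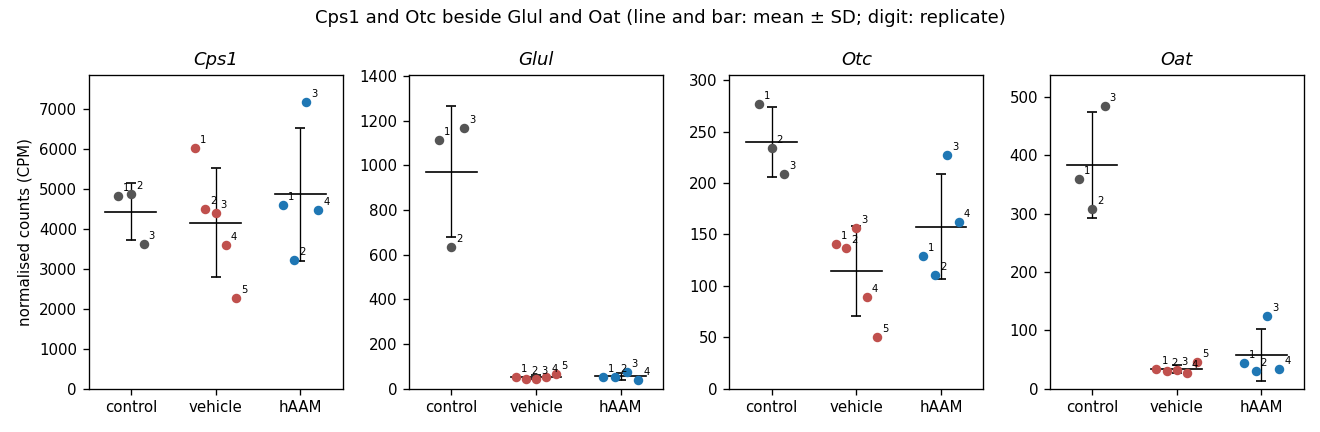
CPM (vertical axes, from 0) of Cps1 beside Glul and of Otc beside Oat, each pair using the same substrate, in the 12 livers with means and SD. Glul and Oat are far lower in all injured livers, and Cps1 overlaps between groups.

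Sdsl, the serine dehydratase-like relative of Sds, and Cad, the carbamoyl phosphate synthetase of pyrimidine synthesis, were not called by edgeR. Their log2 fold changes with vehicle and hAAM were 0.55 and 0.41 for Sdsl, and -0.14 and -0.26 for Cad. Sdsl with vehicle lay near the threshold (edgeR FDR = 0.0722), and was called by DESeq2 (DESeq2 FDR = 0.0454) and without both close livers (edgeR FDR = 0.0365). By library size scaling it was called in both groups (0.90, edgeR FDR = 0.0112, and 0.71, edgeR FDR = 0.0457).

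Of 13 carriers and partners of the cycle, 1 was called higher and 3 lower with vehicle, and 3 lower with hAAM. By library size scaling 7 were called with hAAM. Besides Glul and Oat the rule names Slc25a12, a mitochondrial aspartate-glutamate carrier, which rose by 0.34 with vehicle (edgeR FDR = 0.0226, SE 0.10) and was at 0.27 with hAAM (edgeR FDR = 0.0836, SE 0.10). The remaining gene called was Aqp9, an aquaporin for glycerol and urea, named after its values were seen (log2 fold change -0.63 with vehicle and -0.64 with hAAM). The ornithine carrier Slc25a15 and citrin (Slc25a13) were not among those called.

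Enzymes of the later steps of amino acid breakdown were called about as often as all genes with vehicle. Over 7 lists with 49 genes, 13 were called lower and 2 higher with vehicle (30.6%, beside 29.8% of all genes), and 3 lower and 1 higher with hAAM (8.16%, beside 20.7%), with medians of -0.36 and -0.22. The direction of the calls depended on the scaling, since by library size alone 4 were lower and 7 higher with vehicle and 1 was lower and 7 higher with hAAM, with medians of -0.021 and 0.059 beside 0.36 and 0.32 over all genes. In the pathway that Tat opens, 4 of 7 genes were lower with vehicle (1 was called by library size scaling), and none was called with hAAM, where DESeq2 called 1 and edgeR without both close livers called 1. Among them homogentisate dioxygenase (Hgd) fell by 0.90 (edgeR FDR = 0.0187, SE 0.25), Qdpr, which regenerates the cofactor of phenylalanine hydroxylase, by 0.87 (edgeR FDR = 0.0105, SE 0.21), and Pcbd1, of the same cofactor cycle, by 0.55 (edgeR FDR = 0.00725, SE 0.13). In the histidine and one-carbon list, which holds enzymes after Hal and the histamine-forming Hdc, edgeR called none of 5 genes in either group, and 1 in each by library size scaling. Aldh1l1, which disposes of formyl folate, had the largest difference with vehicle at -0.80 (edgeR FDR = 0.0830, SE 0.32).

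In the serine, glycine and alanine list 1 of 11 was higher and 2 lower with vehicle, and 1 was higher and 1 lower with hAAM. DESeq2 without both close livers called 6 with vehicle. Of the calls with hAAM 1 was left without both close livers and 0 with a replicate block or in a fit to only the groups compared. Mitochondrial alanine aminotransferase (Gpt2), which makes pyruvate from alanine as Sds does from serine, rose by 0.78 with vehicle (edgeR FDR = 0.00200, SE 0.14) and 0.51 with hAAM (edgeR FDR = 0.0262, SE 0.14). Cytosolic serine hydroxymethyltransferase (Shmt1) fell by 0.56 (edgeR FDR = 0.00511, SE 0.12) and 0.44 (edgeR FDR = 0.0290, SE 0.13), and sarcosine dehydrogenase (Sardh) by 0.87 with vehicle (edgeR FDR = 0.0260, SE 0.26).

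Tryptophan breakdown had 3 of 6 genes lower and 1 higher with vehicle and 2 lower with hAAM. With hAAM 1 was left without both close livers, with a replicate block or in a fit to only the groups compared, and 2 of the 4 calls with vehicle were left with the block. Kynurenine monooxygenase (Kmo) fell by 0.84 with vehicle (edgeR FDR = 0.00113, SE 0.13) and 0.60 with hAAM (edgeR FDR = 0.0124, SE 0.14), and Haao, further down the pathway, by 1.10 (edgeR FDR = 0.00748, SE 0.25) and 0.84 (edgeR FDR = 0.0440, SE 0.27). Kynureninase (Kynu) fell by 0.64 with vehicle (edgeR FDR = 0.0400, SE 0.21). Of 6 proline and lysine genes 2 were lower with vehicle, Aldh4a1 by 0.83 (edgeR FDR = 0.0227, SE 0.24) and Aadat by 0.46 (edgeR FDR = 0.0389, SE 0.15). Of 6 methionine and cysteine genes Cbs alone was lower, by 0.61 (edgeR FDR = 0.0346, SE 0.20), a call that was lost by library size scaling, with a replicate block and without both close livers. Of 8 branched-chain genes Hibadh alone was lower, by 0.87 (edgeR FDR = 0.00788, SE 0.20). With hAAM edgeR called no gene of these last 3 lists, whereas DESeq2 called 1 branched-chain gene and library size scaling 1 gene in each of the other two lists.

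**Figure D5:**
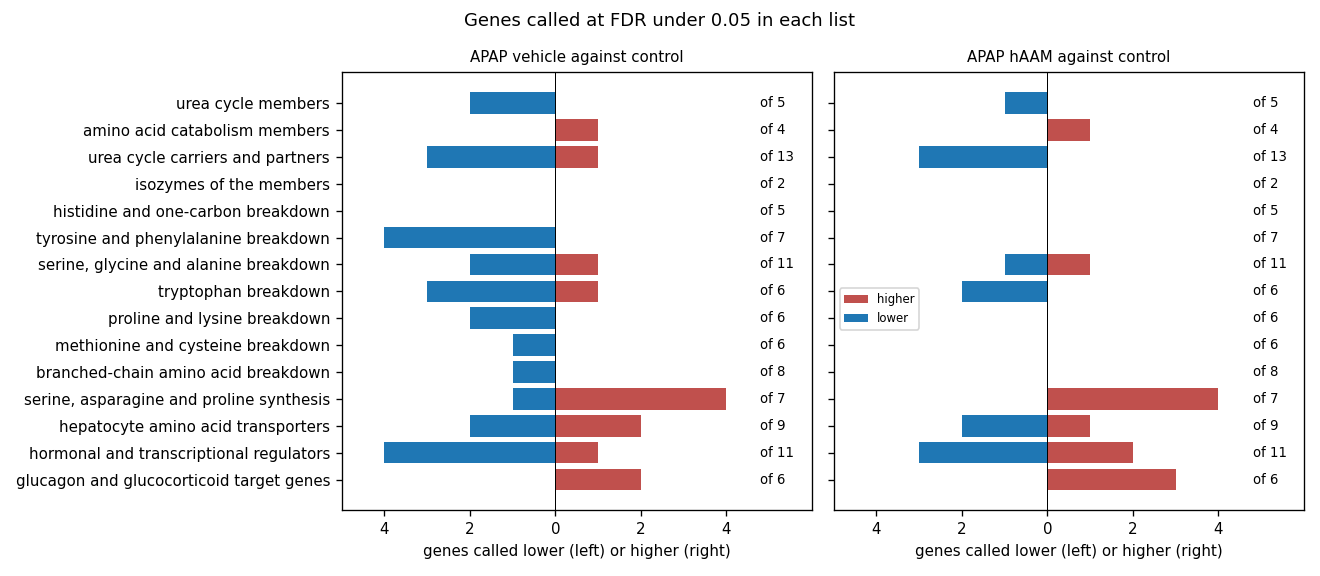
Number of genes called lower (left, blue) or higher (right, red) at an FDR under 0.05 in each list, with the number tested at the right, for APAP vehicle and APAP hAAM against control. Calls in the breakdown lists are mostly lower with vehicle under this scaling (4 lower and 7 higher by library size alone), and calls in the synthesis list are mostly higher in both.

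In the list for synthesis of serine, asparagine and proline, 4 of 7 genes were higher and 1 lower with vehicle, beside 15.0% of all genes higher and 14.8% lower. With hAAM 4 were higher, beside 10.7% of all genes, and 1 was called in a fit to only the groups compared. Psat1, which makes the serine precursor phosphoserine, was at 1.27 ± 0.558 CPM in controls, 12.1 ± 4.02 CPM with vehicle and 8.78 ± 3.53 CPM with hAAM. Its log2 fold change was 3.24 (edgeR FDR = 0.000402, SE 0.42) and 2.78 (edgeR FDR = 0.00183, SE 0.43). Pycr1, the last enzyme of proline synthesis, rose by 0.96 (edgeR FDR = 0.00710, SE 0.22) and 0.80 (edgeR FDR = 0.0287, SE 0.23). Shmt2 fell by 0.46 with vehicle (edgeR FDR = 0.0181, SE 0.13). Psat1 and Sds lay at opposite ends in a pair of injured livers. Vehicle replicate 5 had the highest Psat1 (18.7 CPM) with Sds inside the control range. hAAM replicate 3 had the highest Sds with the lowest Psat1 of the injured livers (4.20 CPM). The other injured livers, with Psat1 at 8.13 to 12.8 CPM, did not follow this opposition. Vehicle replicate 1 and hAAM replicate 1 had Sds at 191.7 and 165.3 CPM with Psat1 at 12.3 and 12.8 CPM. In hAAM replicate 2 Sds was at 99.0 CPM and Psat1 at 9.02 CPM. Sds per Psat1 transcript, per exon length, was 102 to 138 in controls, 7.64 to 44.5 with vehicle and 27.6 to 152 with hAAM.

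Of 9 amino acid transporters 2 were higher and 2 lower with vehicle, and 1 higher and 2 lower with hAAM. A fit to only the groups compared called 1 with hAAM, and DESeq2 without both close livers called 7 with vehicle. The aromatic amino acid transporter Slc16a10 fell by 2.23 (edgeR FDR = 5.56e-05, SE 0.21) and fell by 1.84 with hAAM (edgeR FDR = 0.000447, SE 0.22). The pericentral glutamate transporter Slc1a2 was at 205 ± 41.7 CPM in controls, 0.841 ± 0.663 CPM with vehicle and 11.6 ± 20.9 CPM with hAAM, where replicate 3 was at 42.9 CPM and the other livers at 0.352 to 2.37 CPM. Slc3a2, the heavy chain shared by several transporters, rose by 0.73 with vehicle (edgeR FDR = 0.00562, SE 0.16).

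Glucagon, glucocorticoid and liver-enriched factors are known regulators of the urea cycle genes. Of 11 regulators 1 was higher and 4 lower with vehicle, and 2 higher and 3 lower with hAAM, where 29.8% and 20.7% of all genes were called. With vehicle 3 were called by library size scaling and 2 with a replicate block. The glucagon receptor Gcgr fell by 0.78 (edgeR FDR = 0.00200, SE 0.14) and 0.73 (edgeR FDR = 0.00614, SE 0.15), Atf4 by 0.55 (edgeR FDR = 0.00291, SE 0.11) and 0.50 (edgeR FDR = 0.0104, SE 0.11), and Cebpa by 0.47 (edgeR FDR = 0.0155, SE 0.13) and 0.41 (edgeR FDR = 0.0458, SE 0.13). Of 6 genes known as glucagon or glucocorticoid targets 2 were higher with vehicle (4 were called by library size scaling) and 3 with hAAM. Fkbp5 rose by 1.87 (edgeR FDR = 0.000260, SE 0.23) and 1.38 (edgeR FDR = 0.00268, SE 0.23), and the clock gene Per1 by 1.14 (edgeR FDR = 0.000769, SE 0.17) and 1.28 (edgeR FDR = 0.000972, SE 0.17). Tsc22d3 was at 0.57 with vehicle (edgeR FDR = 0.0823, SE 0.23) and rose by 0.99 with hAAM (edgeR FDR = 0.0156, SE 0.24). The hour of day at which livers were taken is not given in the sources used here.

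Over the 12 livers the genes most like the urea cycle members, by Pearson's r of log2 CPM with the mean of the 5 scaled members, were Gm5424 (r = 0.987), Aass (0.968), Dbt (0.959), Amdhd1 (0.956) and Gm11437 (0.948). Most like the 4 catabolism members were Gldc (r = 0.974), Cth (0.966), Sqor (0.948), Glt1d1 (0.941) and Gm11437 (0.938). Aass opens lysine breakdown, Dbt is a subunit of the branched-chain ketoacid dehydrogenase, Amdhd1 acts in the histidine pathway after Hal, Cth makes cysteine, Gldc cleaves glycine and Sqor oxidises sulphide. These values describe 12 livers of 3 groups, in which vehicle replicate 5 and hAAM replicate 3 lie at the ends, and these genes were picked as the highest among all genes tested.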

How the data were processed

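Livers of 12 mice were sequenced (3 control, 5 APAP vehicle, 4 APAP hAAM, grouped by their labels) from ribosomal RNA-depleted total RNA with a directional kit. The authors trimmed reads with cutadapt 4.6, aligned them to GRCm38 with STAR 2.7.1a and deposited raw counts per Ensembl gene, made with summarizeOverlaps; versions are from the submitters' processing notes, and the strand setting is not given in the sources used here. The extraction text names 14 libraries, of which 12 are analysed here. Totals of 47391650 to 74056505 counts make counting error small beside the spread between mice, and FPKM divides CPM by exon length.

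Members and lists were chosen with earlier results of these data known. A listed member and some isozymes are not reported here. Every other member was named; per list, up to 3 genes with the smallest p for vehicle against control, the other isozymes, and the 5 genes most correlated with each subgroup were named. Counts were filtered with filterByExpr, scaled with TMM and fitted over all 12 livers in edgeR 4.0.16 (R 4.3.3; quasi-likelihood test, two-sided, Benjamini-Hochberg FDR over 22581 genes, threshold 0.05); log2 CPM carry a prior count of 2. On simulated counts for vehicle against control (22581 genes) it called 97% of 4-fold and 69% of 2-fold changes, with 5 false calls. Alternatives were DESeq2 1.42.0, other scalings and filters, a replicate block, an FDR of 0.01, and fits without single livers or without the close pair. Nothing in the labels says more of the replicates than that they are separate mice.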

Additional observations from a re-analysis of the deposited data

Results flagged for a closer look

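In the 18 tests for a liver apart from its group (9 genes in the vehicle and the hAAM group, by the gap of the highest or lowest liver to its neighbour over the whole range), 0 livers stood apart, although APAP vehicle replicate 5 was the lowest of its group for all 9 genes. Groups of 3 were not tested.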

How the results depend on the processing

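The 3, 2 and 0 calls among the 9 genes (vehicle against control, hAAM against control, hAAM against vehicle) were the same with DESeq2, median-ratio scaling, either filter alternative and without the close pair of livers. At an FDR of 0.01 there were 0, 0 and 0, and over all genes 3183 and 1543 against control. Leaving out each liver in turn gave 1 to 3 calls with vehicle and 0 to 2 with hAAM, and 2419 to 5456 calls over all genes for hAAM against control and 0 to 1 between treatments. The count with vehicle was 1 without any of the 3 controls or without vehicle replicate 4, and the count with hAAM was 0 without control replicate 3. Of 594 values for single genes under all alternatives 543 kept direction and call, 25 lost a call and 26 turned direction, none of those 26 being a called value.

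Scaling by library size alone left 1 call among the 9 genes with vehicle and 1 with hAAM (Sds in both), and called 7340 genes with hAAM against control. It moved the share of calls that were higher from 50.3% to 88.6% with vehicle and from 51.8% to 89.4% with hAAM, and turned Cps1 to 0.25 and Gls2 to 0.053 with vehicle and Ass1 to 0.14 and Gls2 to 0.16 with hAAM. A fit to only the groups compared called 2729 genes with hAAM. DESeq2 called 1 gene between treatments, and 88 without the close pair. The causes were not tested. Among the lists, proline and lysine calls with vehicle went from 2 to 1 by library size scaling or a replicate block, and synthesis genes with hAAM from 4 to 1 in the fit to only the groups compared.

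Livers with the same replicate number had correlations of -0.46 to 0.38 between their deviations from the group means. Differently numbered livers were not set beside them, so these values cannot decide whether the numbers pair mice. A replicate block left 2 calls with vehicle and 1 with hAAM among the 9 genes (Nags was lost in both), and 4253 and 2959 over all genes. Under the block Cps1 was at 0.11 with vehicle, and between treatments Asl was at -0.061, Gls2 at -0.018 and Hal at -0.13.

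Values that changed sign when a liver was left out spanned, on the log2 scale, -0.26 to 0.064 for Cps1 with vehicle. With hAAM they spanned -0.11 to 0.29 for Cps1, -0.40 to 0.10 for Ass1, -0.36 to 0.063 for Gls2, -0.055 to 0.50 for Hal and -0.13 to 0.39 for Tat. Between treatments they spanned -0.11 to 0.042 for Nags, -0.021 to 0.40 for Cps1, -0.0055 to 0.50 for Ass1, -0.26 to 0.35 for Asl, -0.072 to 0.35 for Gls2, -0.079 to 0.39 for Sds and -0.24 to 0.31 for Hal.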
